A study of Mus musculus with 24 samples.

Results

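RNA was sequenced from the livers of 2 inbred mouse strains, C57BL/6J and A/J, after 3 diet regimens. In these data 7 genes of amino acid metabolism and endoplasmic reticulum (ER) stress are described here: Asns, Chac1, Creld2, Herpud1, Cps1, Sds and Csad. They were chosen from the authors' deposited tables of transcripts that differed between diets, among 862 genes with a row in either strain's table, so their own fold changes and p-values are descriptions of how they were chosen and no test of them. In each strain the groups were 16 weeks on high fat diet (HF), 8 weeks on high fat diet with 8 weeks on control diet after them (Reversal), and 16 weeks on control diet (Control), with 2 RNA libraries per group and 12 in all. The labels give no sex, no age and no statement that libraries came from separate animals, so that the spread behind the deposited p-values is that of the libraries and may be technical. Every group shared the tissue, whole liver, in which fewer cells of a type and less RNA per cell cannot be told apart.

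Cells that lack an amino acid, or whose ER holds unfolded protein, slow translation and make more of the transcription factor ATF4, which binds amino acid response elements in genes of amino acid synthesis, transport and glutathione turnover. Another arm of the ER response acts through ATF6 and XBP1, which bind ER stress elements in genes of chaperones and of ER-associated degradation. Hepatocytes also break down surplus amino acids, turn the nitrogen into urea and make taurine for bile acid conjugation, and many genes of nitrogen disposal are known to follow fasting, glucagon, glucocorticoids and dietary protein.

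The bases before the annotated starts are shown first because they hold the letters by which these 2 arms are known. RefSeq promoter windows of GRCm38.p6 were at hand for 5 of the 7 genes, and the 250 bases before the start were searched on both strands for 4 motifs: the amino acid response element (TGATG, 1 base of any kind, AA), the ER stress element (CCAAT, 9 bases of any kind, CCACG), the ER stress element II (ATTGG, 1 base of any kind, CCACG) and the unfolded protein response element (TGACGTGG). Capitals mark the matches, positions count back from -1, the last base before the start, and each sequence reads 5′ to 3′ on the strand of its gene. The Asns window is chr6:7693210-7693459 on the minus strand, the Chac1 window chr2:119350992-119351241, the Creld2 window chr15:88819396-88819645 and the Herpud1 window chr8:94386179-94386428, all 3 on the plus strand.
Asns: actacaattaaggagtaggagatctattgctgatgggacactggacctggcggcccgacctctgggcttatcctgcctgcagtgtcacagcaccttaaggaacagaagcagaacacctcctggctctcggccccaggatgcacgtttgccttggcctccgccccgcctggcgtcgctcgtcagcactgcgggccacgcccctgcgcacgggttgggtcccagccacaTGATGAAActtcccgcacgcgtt
Chac1: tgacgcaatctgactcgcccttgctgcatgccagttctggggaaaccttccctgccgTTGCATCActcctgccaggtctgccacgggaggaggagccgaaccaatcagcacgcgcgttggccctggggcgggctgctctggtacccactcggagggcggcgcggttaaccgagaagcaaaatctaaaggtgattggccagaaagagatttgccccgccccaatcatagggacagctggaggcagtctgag
Creld2: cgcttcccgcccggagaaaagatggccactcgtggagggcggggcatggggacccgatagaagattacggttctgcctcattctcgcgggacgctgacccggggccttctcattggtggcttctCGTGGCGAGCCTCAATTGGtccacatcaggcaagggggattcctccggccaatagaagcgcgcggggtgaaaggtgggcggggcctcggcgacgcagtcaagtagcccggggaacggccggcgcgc
Herpud1: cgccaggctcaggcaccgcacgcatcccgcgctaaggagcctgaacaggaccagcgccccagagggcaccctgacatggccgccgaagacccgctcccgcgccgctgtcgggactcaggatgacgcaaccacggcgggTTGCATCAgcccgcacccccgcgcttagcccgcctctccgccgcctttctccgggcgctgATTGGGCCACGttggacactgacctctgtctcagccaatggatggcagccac

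Asns held the amino acid response element as TGATGAAA at -23 to -16, close to its start. Chac1 held it on the other strand as TTGCATCA at -193 to -186, and Herpud1 held the same 8 letters at -112 to -105. Of all 32851 windows of this length, 3.45% held a match to this short motif. The longer ER motifs were rarer. Creld2 held the ER stress element on the other strand at -126 to -108, as did 0.113% of all windows, and Herpud1 held the ER stress element II, a form described in the human HERPUD1 promoter, at -52 to -42, as did 0.0304%. Herpud1 was thus the one gene of the 5 with letters of both arms, and no match overlapped another. Both Csad windows were without a match, which says only that these letters are not in those bases, and the unfolded protein response element, present in 0.563% of all windows, matched none of the 6 windows searched.

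**Figure D1:**
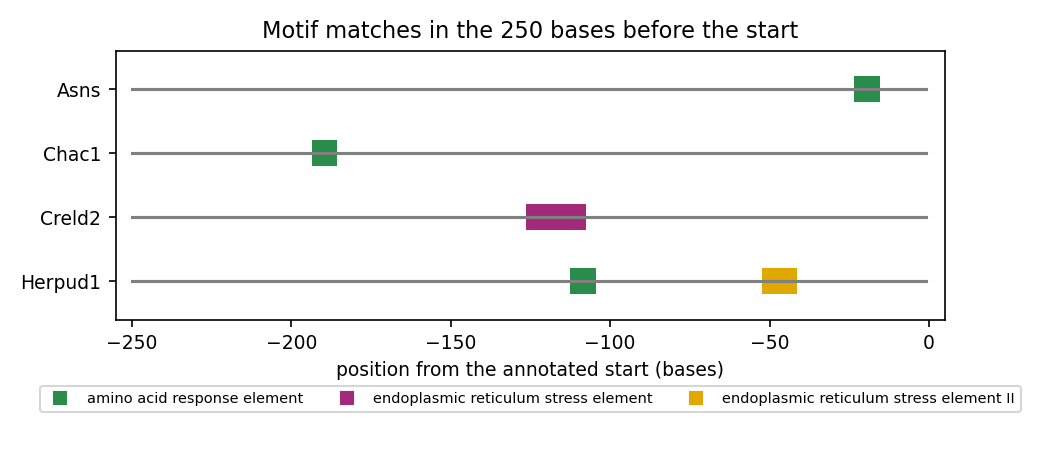
Motif matches along the 250 bases before the annotated start of Asns, Chac1, Creld2 and Herpud1, with position in bases on the x axis and coloured blocks for the matches. The amino acid response element stands at -23 in Asns, -193 in Chac1 and -112 in Herpud1, the ER stress element at -126 in Creld2 and the ER stress element II at -52 in Herpud1.

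The same search over longer lists put these matches beside those of related genes, including genes with no row in the expression tables. In a list of 30 ER stress genes, 25 had a window, and 10 of these (40%) held the ER stress element, against 0.13% of all 27025 genes with a window. They were Calr, Canx, Creld2, Derl3, Dnajc3, Ero1b, Hsp90b1, Hspa5, Pdia6 and Syvn1. In a list of 30 genes of the amino acid response, 27 had a window, and 8 (29.6%) held the amino acid response element, against 3.91% of all genes: Asns, Atf3, Chac1, Fgf21, Nupr1, Pck2, Slc7a11 and Vldlr. The urea cycle list and the list of sulfur amino acids had no gene with any of the 4 motifs, among 8 and 12 genes with a window. Of 16 transporter genes with a window 2 (12.5%), Slc7a11 and Slc7a7, held the amino acid response element, as did 1 of 34 amino acid breakdown genes (2.94%), Got1. Both response lists hold genes known for these elements, so the shares describe the lists and are not independent evidence.

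The authors' deposited tables give, for each transcript, a mean normalized count over the libraries of the strain, a log2 fold change between 2 diets that are not named, its standard error, and the likelihood ratio statistic and p-value of a test over all 3 diets. Values per library were not analysed here. A positive or negative fold change therefore names no diet as the higher one, and whether both tables compare the same diets is not known. At an adjusted p of 0.05 the tables hold 681 of 19658 C57BL/6J transcripts tested (3.46%) and 699 of 20591 A/J transcripts (3.39%). All 7 genes had 1 row in the C57BL/6J table, against those 3.46%, and 2 of them, Herpud1 and Cps1, had 1 row in the A/J table, against 3.39%. Since the genes were taken from these tables, nothing follows from either count. The member nearest to the threshold was Csad, with an adjusted p of 0.0285 from DESeq2 in the authors' deposited C57BL/6J table. The 5 genes without an A/J row have no value there, and the weakest transcript in that table had a statistic of 12.8.

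Asns encodes asparagine synthetase, which makes asparagine from aspartate and glutamine. In C57BL/6J liver its transcript NM_012055 had a mean normalized count of 57.8 and a log2 fold change of -2.04 ± 0.47 (SE) in the authors' deposited table. That is a 4.10-fold difference between the paired diets (95% interval 2.18 to 7.72), and it ranked 16 by size among the 455 genes of the table. Chac1 encodes an enzyme that breaks down glutathione and is a target of ATF4. Its transcript NM_026929 had a similar mean normalized count of 63.0 and the opposite sign, at 1.16 ± 0.43 (SE) in the authors' deposited table, a 2.24-fold difference (1.25 to 4.01). The 2 genes, both known to answer to ATF4 and both with its motif before the start, thus did not share a direction in the same pair of diets. Adjusted p-values over 3 diets were nearly equal, 0.00395 for Asns and 0.00404 for Chac1, from DESeq2 in the authors' deposited table.

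Creld2 encodes an ER-resident protein that helps disulfide-bonded proteins to fold, and Herpud1 an ER membrane protein that works with the ubiquitin ligase Syvn1 in ER-associated degradation. Both had a negative fold change in C57BL/6J. Creld2, transcript NM_029720, had a mean normalized count of 896 and a log2 fold change of -0.64 ± 0.25 (SE) in the authors' deposited table, a 1.55-fold difference (1.10 to 2.19). Herpud1, transcript NM_022331, had a mean normalized count of 9505 and -0.29 ± 0.14 (SE) in the authors' deposited table, a 1.23-fold difference (1.01 to 1.49), the smallest of the 7 genes. In A/J liver the same Herpud1 transcript had a mean normalized count of 8996 and a positive fold change, 0.33 ± 0.13 (SE), in the authors' deposited table. The statistic over 3 diets was 21.9 in C57BL/6J (adjusted p 0.00140) and 31.0 in A/J (adjusted p 2.47e-05), from DESeq2 in the authors' deposited tables.

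Cps1 encodes carbamoyl phosphate synthetase, the mitochondrial entry step of the urea cycle. Its transcript NM_001080809 had a mean normalized count of 99665 in C57BL/6J and 96337 in A/J, tables that were normalized separately. The fold changes were small and of opposite sign, 0.30 ± 0.11 (SE) in C57BL/6J and -0.23 ± 0.10 (SE) in A/J, in the authors' deposited tables. Yet the test over 3 diets gave the 2 highest statistics among the members, 38.4 in C57BL/6J (adjusted p 1.09e-06) and 56.9 in A/J (adjusted p 1.82e-10), from DESeq2 in the authors' deposited tables. For this gene the diets thus differed by more than the deposited fold change shows.

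Sds encodes serine dehydratase, which turns serine into pyruvate and ammonia. In C57BL/6J its transcript NM_145565 had a mean normalized count of 5129 and a log2 fold change of 1.24 ± 0.38 (SE) in the authors' deposited table, a 2.37-fold difference (1.42 to 3.95). Csad encodes cysteine sulfinic acid decarboxylase, which makes the taurine precursor hypotaurine. Its transcript NM_144942 had a mean normalized count of 10695 and -1.50 ± 0.39 (SE) in the authors' deposited table, a 2.82-fold difference (1.65 to 4.82). In the gene table of GRCm38, Sds overlaps Plbd2 and Csad overlaps Zfp740, with strand use in counting not given in the sources used here, so part of their counts could belong to the neighbour.

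In all, 4 of the 7 genes had a negative and 3 a positive fold change in C57BL/6J, where 41.8% of the 455 genes with a row were negative and 58.2% positive. Their median size was 1.16 on the log2 scale, beside 0.41 over all genes of that table. The 95% interval left out 0 in all 7, beside 62.2% of the genes with a row, and in Herpud1 it ended close to 0, running from -0.58 to -0.01. In A/J 1 of the 2 genes with a row was positive and 1 negative, beside 51.5% and 48.5% of the 482 genes of that table, and the interval left out 0 in both, beside 52.9%.

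**Figure D2:**
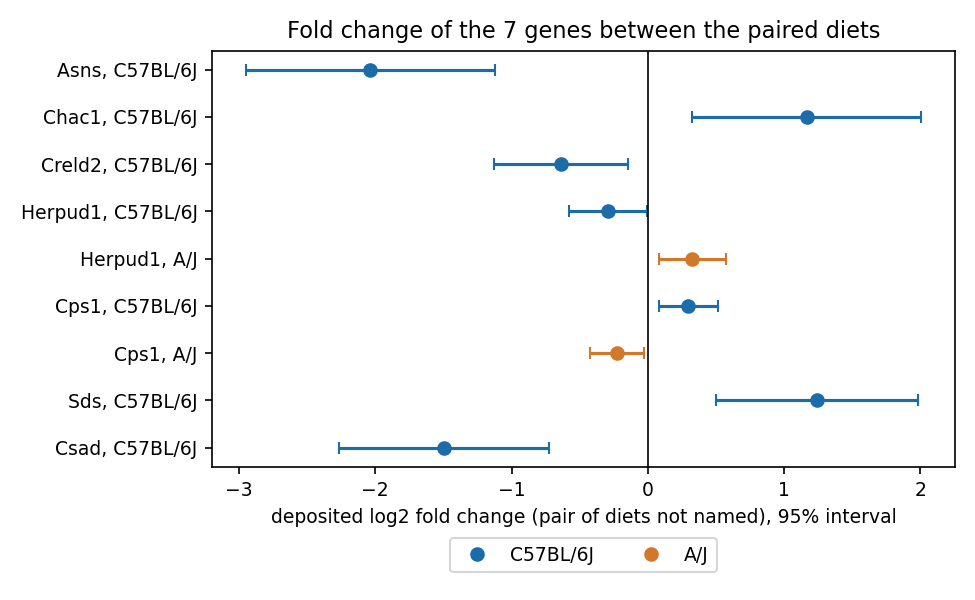
Deposited log2 fold change between the paired, unnamed diets on the x axis for each gene and strain, with points for the fold change and bars for its 95% interval. Asns, Csad, Creld2 and Herpud1 lie below 0 and Chac1, Sds and Cps1 above 0 in C57BL/6J, while Herpud1 lies above and Cps1 below 0 in A/J.

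Because the statistic covers all 3 diets and the fold change only 2, comparing them shows where the remaining diet stood. Dividing the fold change by its standard error and squaring gives about the part of the statistic that the pair accounts for. It was 19.1 of 19.4 for Asns and 14.4 of 14.3 for Csad, so that for these 2 genes the pair held nearly the whole statistic. For Chac1 it was 7.40 of 19.3, for Creld2 6.38 of 18.8 and for Sds 10.9 of 17.4. For Herpud1 it was 4.09 of 21.9 in C57BL/6J and 6.71 of 31.0 in A/J, and for Cps1 7.13 of 38.4 and 4.93 of 56.9. In Herpud1 and Cps1 most of the statistic was therefore left for the remaining diet in both strains.

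**Figure D3:**
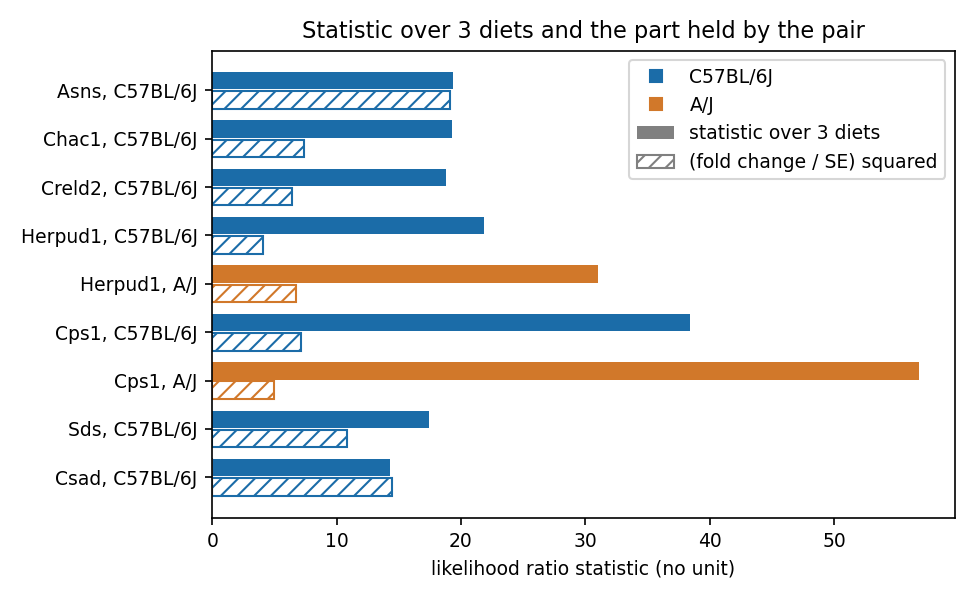
Likelihood ratio statistic over 3 diets (filled bars) and the square of fold change over standard error (hatched bars) for each gene and strain, on an x axis without unit. The bars are nearly equal for Asns and Csad and far apart for Herpud1 and Cps1, where 4.93 of 56.9 belongs to the pair for Cps1 in A/J.

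With 2 libraries in each diet, what is left of the statistic also gives an approximate distance of the remaining diet from the midpoint of the pair, without its direction. For Cps1 that distance was 0.54 ± 0.10 log2 units (SE) in C57BL/6J and 0.63 ± 0.09 in A/J, while each diet of the pair lay 0.15 and 0.11 from the midpoint. Herpud1 had 0.53 ± 0.13 in C57BL/6J and 0.54 ± 0.11 in A/J, against 0.15 and 0.16 for the pair. In these genes the remaining diet stood beyond the pair by more than 3 standard errors of its distance, in either strain. The error of the pair's own span is not counted in this and would lower that number. The weakest rows had a statistic over 3 diets of 12.7 in C57BL/6J and 12.8 in A/J. A gene with a row whose pair accounted for little of its statistic therefore had to come out beyond the pair. That was so for Herpud1 and Cps1 in both strains, so their side was fixed by the selection and is no finding.

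Creld2 had a distance of 0.77 ± 0.22 log2 units against 0.32 for the pair, and Chac1 1.28 ± 0.37 against 0.58. Here too the estimated place of the remaining diet lay outside the pair, by about 2 standard errors of the distance alone. For Creld2 and Chac1 as well, the selection of rows had fixed that side. For Sds the distance of 0.84 ± 0.33 differed from the 0.62 of the pair by less than 1 standard error. Asns had 0.21 ± 0.40 against 1.02, and Csad 0, with a standard error of 0.34, against 0.75. For Asns and Csad the estimated place of the remaining diet was between the paired diets, by about 2 standard errors of the distance alone. The distance of Csad was set to 0 because the pair's part exceeded its statistic. By the point estimates, the remaining diet lay beyond the pair in 5 of 7 genes in C57BL/6J, beside 70.5% of all genes with a row. Sds is one of these 5, though its place is not settled. In A/J the remaining diet lay beyond the pair in both genes, beside 85.9%. All these shares are partly fixed by the same selection of rows. These distances assume an equal spread in the 3 diets, and the pair's part exceeded the statistic in 36 C57BL/6J and 28 A/J transcripts, by at most 3.26 and 4.54.

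**Figure D4:**
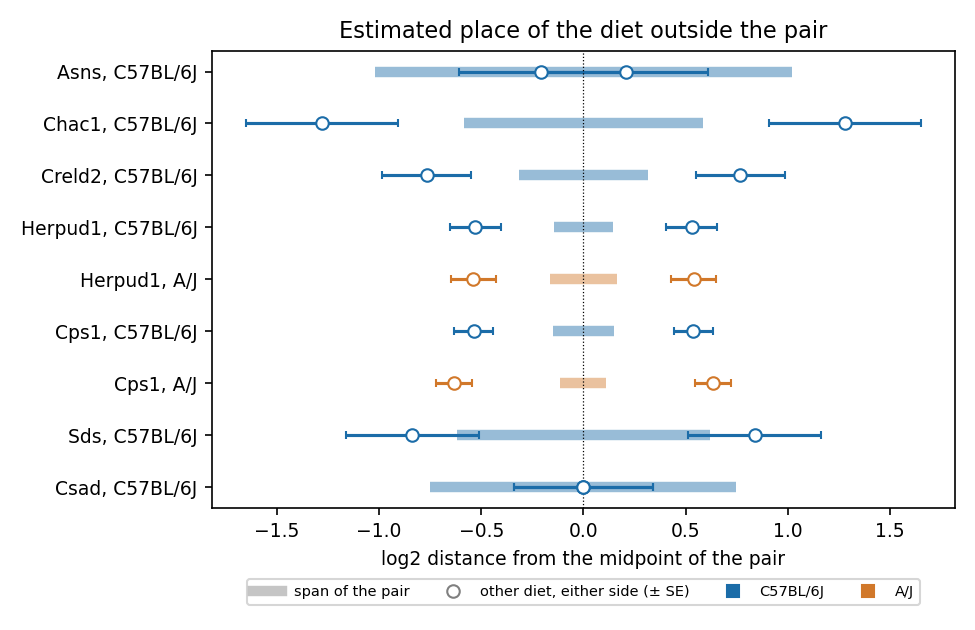
Estimated log2 distance from the midpoint of the paired diets on the x axis: thick bars give the span of the pair and open circles the remaining diet, drawn on both sides because its direction is not known, with bars of 1 SE. The circles lie inside the span for Asns and Csad and well outside it for Herpud1 and Cps1 in both strains.

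The other genes of these pathways were counted in 6 lists of 147 genes in all, of which 47 had a row in C57BL/6J and 17 in A/J. A gene such as Cth can stand in more than 1 list. The lists were chosen with earlier results of these data known. They also hold the genes described above, which were taken from these same tables. Part of a list's share with a row can thus be built in by the choice, so the shares are descriptions and no test of the lists. A list's share counts genes, while the 3.46% and 3.39% beside it count transcripts. Each list is set beside the whole tables: in C57BL/6J 3.46% of transcripts tested had a row, and of the genes with a row 58.2% were positive, 41.8% negative and 62.2% had an interval that left out 0, while in A/J these shares were 3.39%, 51.5%, 48.5% and 52.9%. Of the 30 ER stress genes 10 (33.3%) had a row in C57BL/6J, beside 3.46% of transcripts, 9 negative (beside 41.8% of genes) and 1 positive, with a median log2 fold change of -0.55 beside 0.12 over all 455 genes with a row. The interval left out 0 in 8 of the 10, all 8 negative, beside 62.2% of genes. Hyou1, an ER chaperone, had -0.82 ± 0.17 (SE), Ero1b, which oxidises disulfides in the ER, -0.63 ± 0.12, and Hspa5, the ER chaperone BiP, -0.48 ± 0.15, in the authors' deposited table. Dnajb9, a partner of BiP, had -0.81 ± 0.22, Manf, a protein secreted under ER stress, -0.62 ± 0.19 and the ER stress sensor Atf6 -0.45 ± 0.11 in the authors' deposited table, each on the side of Creld2 and Herpud1. By the point estimates, the remaining diet lay beyond the pair in 7 of the 10 and between the paired diets in 3, Hyou1, Dnajb9 and Atf6. It lay beyond the pair in 70.5% of all genes with a row. In several of the 10 it lay within 1 standard error of the pair's edge. The shared sign is thus not by itself a shared pattern over 3 diets. The interval did not leave out 0 for Syvn1, at -0.17 ± 0.15, nor for the positive Crebrf, a regulator of the transcription factor CREB3, at 0.19 ± 0.19 in the authors' deposited table. These intervals concern the paired diets only. Over 3 diets the statistic was 16.0 for Syvn1 and 29.4 for Crebrf. Their remaining diet lay an estimated 0.49 ± 0.13 and 0.88 ± 0.16 log2 units from the pair's midpoint. Herpud1 was the 1 gene of the 30 (3.33%) with a row in A/J, beside 3.39% of transcripts.

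In the amino acid response list 6 of 30 genes had a row in C57BL/6J (20%, beside 3.46% of transcripts), 3 of each sign, and all 6 intervals left out 0, beside 62.2% of genes. On the side of Asns stood the stress hormone genes Fgf21 at -2.97 ± 0.32 (SE) and Gdf15 at -2.57 ± 0.35 in the authors' deposited table. On the side of Chac1 stood Cebpb, a transcription factor that pairs with ATF4, at 0.90 ± 0.18 and Cth, which makes cysteine from cystathionine, at 0.68 ± 0.19 in the authors' deposited table. By sign in this pair of diets, the split between Asns and Chac1 ran through the list, whose median of -0.68 describes neither side. By the point estimates, the remaining diet lay beyond the pair in 1 of the 6, Chac1, and between the paired diets in 5. It lay beyond the pair in 70.5% of all genes with a row. A shared sign is therefore not a shared pattern over the 3 diets. In A/J 2 of the 30 had a row (6.67%, beside 3.39%), Cth at -0.43 ± 0.14 and Fgf21 at 0.65 ± 0.32 in the authors' deposited table.

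Genes of nitrogen disposal leaned to the other side from the ER genes. Of 13 genes of the urea cycle and ammonia handling 6 had a row in C57BL/6J (46.2%, beside 3.46% of transcripts). Their mean normalized counts ran from 11407 to 99665, above the median of 1436 over the rows of the table. No share among transcripts of like count was computed. All 6 were positive, beside 58.2% of genes, with an interval that left out 0, beside 62.2%, and their median was 0.46, beside 0.12 over all genes. Beside Cps1 these were Ass1 at 0.72 ± 0.13 (SE) and Asl at 0.55 ± 0.11, which join and split argininosuccinate, Otc, which makes citrulline, at 0.37 ± 0.12, Arg1, which releases urea, at 0.37 ± 0.11, and the liver glutaminase gene Gls2 at 0.72 ± 0.14 in the authors' deposited table. For A/J, 3 of the 13 had a row (23.1%, beside 3.39%), all negative, beside 48.5% of genes, with an interval that left out 0, beside 52.9%: Cps1, Ass1 at -0.40 ± 0.15 and the glutamine synthetase gene Glul at -0.26 ± 0.09 in the authors' deposited table.

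Of 40 amino acid breakdown genes 17 (42.5%) had a row in C57BL/6J, beside 3.46% of all transcripts tested. That share counts Sds, which was taken from this table, and the list was chosen with earlier results known, so the excess can be partly built in. All 17 were positive, beside 58.2% of genes, with an interval that left out 0, beside 62.2%, and their median was 0.52. The fold change of Sds was within 1 standard error of that of Got1, an aspartate aminotransferase, which had 1.17 ± 0.17 (SE). Lower values were those of Prodh, which starts proline breakdown, at 0.73 ± 0.13, and the histidine pathway genes Hal and Amdhd1 at 0.69 ± 0.16 and 0.45 ± 0.11 in the authors' deposited table. The other 12 ranged from 0.24 to 0.69. By the point estimates, the remaining diet lay beyond the pair in 5 of the 17, Sds among them, and between the paired diets in 12, while it lay beyond the pair in 70.5% of all genes with a row. In Sds and in several of the 12 it lay within 1 standard error of the pair's edge, so its place there is not settled. All 17 had a mean normalized count from 5129 to 56805, above the median of 1436 over the rows of the table, and no share among transcripts of like count was computed.

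In A/J 5 of the 40 breakdown genes had a row (12.5%, beside 3.39% of transcripts), 4 negative (beside 48.5% of genes) and 1 positive, with a median of -0.39 beside 0.01 over all 482 genes with a row. The interval left out 0 in 3 of the 5, beside 52.9%: Oat, an ornithine aminotransferase, at -0.52 ± 0.14 (SE), Gnmt, which methylates glycine, at -0.51 ± 0.12 and Tdo2, which starts tryptophan breakdown, at -0.39 ± 0.11 in the authors' deposited table. Aass, the first enzyme of lysine breakdown, had -0.13 ± 0.09, and Gldc, of the glycine cleavage system, had 0.00 ± 0.12 in the authors' deposited table. Those values concern the paired diets only, and the statistic over 3 diets was 16.8 for Aass and 14.9 for Gldc.

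Csad had the largest fold change by size in its own list. Of 19 genes of sulfur amino acids, taurine and glutathione synthesis 5 had a row in C57BL/6J (26.3%, beside 3.46% of transcripts), 3 positive and 2 negative, and all 5 intervals left out 0, beside 62.2% of genes. The positive ones were Cth, Ahcy, which splits S-adenosylhomocysteine, at 0.45 ± 0.12 (SE), and Cbs, which makes cystathionine, at 0.26 ± 0.12 in the authors' deposited table. Csad and the glutathione synthetase gene Gss, at -0.39 ± 0.16 in the authors' deposited table, were negative. In A/J 2 of the 19 had a row (10.5%, beside 3.39%), Cth and Gclc, the catalytic subunit of glutamate cysteine ligase. Gclc had 0.13 ± 0.11 between the paired diets in the authors' deposited table, with a statistic of 21.0 over 3 diets.

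Amino acid transporters were split in C57BL/6J, where 4 of 22 had a row (18.2%, beside 3.46% of transcripts), 2 of each sign, all 4 with an interval that left out 0, beside 62.2% of genes. Slc7a2, a carrier of arginine and lysine, had 0.52 ± 0.15 (SE) and Slc6a12, a carrier of betaine, 0.43 ± 0.11, against -0.63 ± 0.17 for the glycine carrier Slc6a9 and -0.80 ± 0.31 for the cationic amino acid exporter Slc7a7 in the authors' deposited table. For A/J, 5 of 22 had a row (22.7%, beside 3.39%), 4 of them negative, beside 48.5% of genes, and the interval left out 0 in 3, beside 52.9%. These 3 were the neutral amino acid carrier Slc43a1 at -0.54 ± 0.22 (SE), the neutral amino acid carrier Slc1a4 at -0.54 ± 0.19 and the glutamate carrier Slc1a2 at -0.41 ± 0.16 in the authors' deposited table. The interval held 0 for the glutamine carrier Slc38a3 at -0.06 ± 0.09 and for Slc7a2 at 0.07 ± 0.15 in the authors' deposited table. Their statistics over 3 diets were 19.5 and 15.3.

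**Figure D5:**
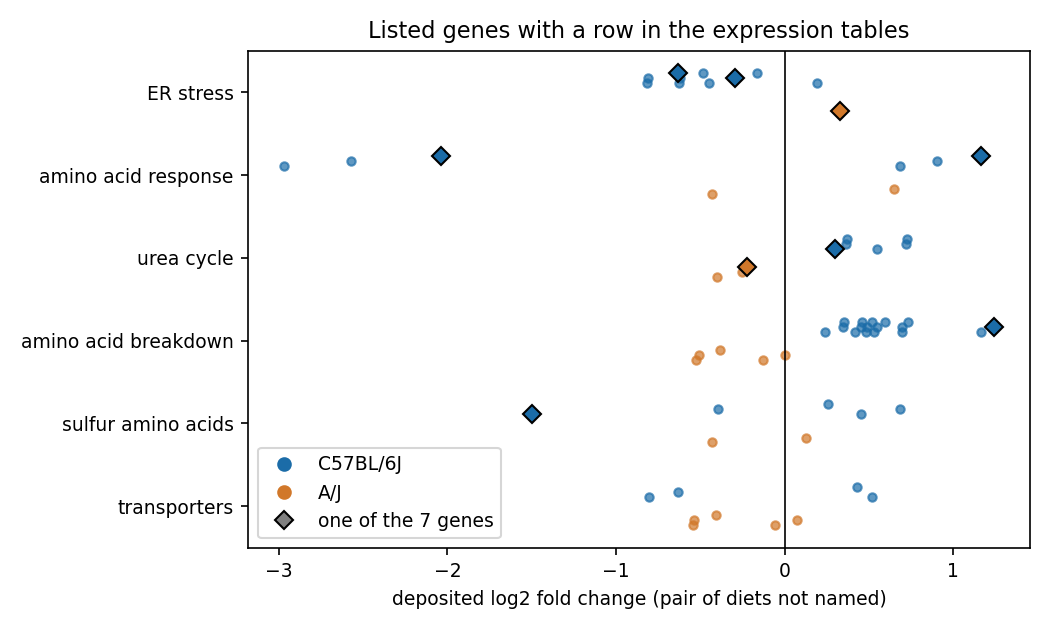
Deposited log2 fold change between the paired, unnamed diets on the x axis for each listed gene with a row, by list and strain, with diamonds for the 7 genes and circles for the others. In C57BL/6J 9 of 10 ER stress genes lie below 0 and all 17 amino acid breakdown genes above 0, while in A/J 4 of 5 breakdown genes lie below 0.

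Of the listed genes 8 had a row in both strains, and 7 of them had opposite signs in the 2 tables, beside 46.7% of the 75 genes with a row in both. They were Cps1 and Herpud1 with Aass, Ass1, Cth, Fgf21 and Gnmt, and the one with the same sign was Slc7a2. The diets behind each sign are not named and could differ between the tables, so that a difference between the strains was not tested.

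Markers of cell types were counted in the same tables, again as genes beside a share of transcripts. In C57BL/6J 0 of 33 listed markers of macrophages, stellate cells, endothelium, lymphocytes and cholangiocytes had a row, beside 3.46% of all transcripts tested. The adipocyte marker list had 1 of 5, Cfd, at 0.56 ± 0.41 (SE), and the exocrine pancreas list 0 of 7, in the authors' deposited table. That value of Cfd concerns the paired diets only. Its statistic over 3 diets was 38.4, and the remaining diet lay an estimated 2.17 ± 0.36 log2 units from the pair's midpoint. For A/J, the macrophage list had 2 of 8 (25%, beside 3.39% of transcripts), Marco at 1.09 ± 0.41 and Cd5l at 0.40 ± 0.22, and the pancreas list 1 of 7 (14.3%), Cela1 at -0.67 ± 0.19, in the authors' deposited table. The remaining diet lay an estimated 1.52 ± 0.35 log2 units from the pair's midpoint for Marco and 0.63 ± 0.19 for Cd5l. The other A/J marker lists, hepatocytes included, had 0 of 42. Of 12 hepatocyte markers 4 (33.3%) had a row in C57BL/6J, 2 of each sign, with mean normalized counts from 14347 for Hnf4a to 212557 for Cyp2e1. Apoa1, of high density lipoprotein, had -0.44 ± 0.16 and the transcription factor gene Hnf4a -0.35 ± 0.10, both with an interval that left out 0 in the authors' deposited table. The interval held 0 for the fibrinogen gene Fgg at 0.07 ± 0.11 and the cytochrome gene Cyp2e1 at 0.08 ± 0.14 in the authors' deposited table. Their statistics over 3 diets were 14.4 and 14.1. A marker without a row can be expressed or not, and the part of other cells in the results above was not tested.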

How the data were processed

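Bowtie2, TopHat, DESeq2 and the assembly mm9 appear in the submitters' processing notes without versions or roles, and sequencing depth was not given in the sources used here. Per the file headers, the authors deposited DESeq2 result columns: a mean normalized count per transcript (a signal over all libraries of a strain), a log2 fold change with its standard error, a score per transcript that is the likelihood ratio statistic, and a p-value with its adjusted p-value. Each deposited p-value is the chi-square tail at that statistic on 2 degrees of freedom, and every deposited adjusted p-value was under 0.05.

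Symbols came from RefSeq transcripts (GRCm38.p6, names only): 675 C57BL/6J and 690 A/J transcripts matched, and 6 and 9 did not. A gene was represented by its transcript of smallest p. Numbers tested were recovered from p-values, adjusted p-values and ranks, using ratios within 0.001 of a whole number. A 95% interval is the fold change ± 1.96 standard errors. The remaining diet's distance is the fold change's standard error times the square root of 0.75 times what is left of the statistic, set to 0 where negative. Python 3.11.15, pandas 2.3.3 and scipy 1.17.1 were used. The planned tests on values per library could not be made, since the tables hold none. The FAIRE peak lists, in mm9, were not used here.

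The 7 genes and all lists were chosen with earlier results of these data known. Named were the 7 genes, in each list and strain up to 4 more with the smallest adjusted p, and, after their values were seen, Dnajb9, Atf6, Manf, Syvn1, Arg1, Gldc and Slc43a1. One gene of the amino acid breakdown list is not reported here and was left out of the list's counts. No gene was named for a likeness over libraries. Alternatives were an adjusted p threshold of 0.01, rows at or above the median mean count, a 99% interval, the transcript of highest mean count and, added after the data were seen, the whole 300 base window.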

Additional observations from a re-analysis of the deposited data

How the results depend on the processing

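Of 53 alternative values, 39 lay within 1.5 times the count reported, and the other 14 follow. With rows at or above the median mean count of 1436 (C57BL/6J) or 1104 (A/J), the members with a row in C57BL/6J came to 4 in place of 7, since Asns, Chac1 and Creld2 lie below it, the amino acid response list to 1 in each strain, and the transporters to 2 in each strain. At an adjusted p of 0.01 the C57BL/6J breakdown list came to 11 genes, all 11 positive, the sulfur list to 1 and the transporters to 1, and in A/J the urea cycle list came to 1, the breakdown list to 3, the transporters to 2 and the positive breakdown genes to 0. These alternatives leave out rows by construction. A 99% interval left out 0 in 1 of the 2 A/J members, Herpud1. In C57BL/6J, where the count is among the 39, it left out 0 in 5 of the 7 genes and held 0 for Creld2 and Herpud1. With the transcript of highest mean count, the counts of genes with a row cannot change, because the same genes have a row. Nor can the interval counts of the 7 genes, which have 1 row each in a strain. Those values among the 39 were thus fixed in advance. The number of positive breakdown genes stayed the same in both strains, and the whole 300 base window moved no count by more than 1.5 times.

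No paired analysis was possible because the tables hold no values per library, and for the same reason no library was left out in turn and no counts were refitted. Unnamed diets in the contrast, no depth and 2 libraries per group limit every value, and a transcript outside a table has no value there.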
